A study of Saccharomyces cerevisiae with 21 samples.

Results

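The cytosolic large ribosomal subunit protein genes of Saccharomyces cerevisiae are those whose symbol is RPL and a number, with or without a final A or B. Of 76 such symbols in the RefSeq gene table (assembly R64), 42 had a probe set annotated to them alone, out of 5656 genes in all, and these are the members described here. A gene with several such probe sets is represented by the brightest, judged by its mean signal across the 21 arrays. The members comprise both copies of 16 duplicated genes, 32 genes in all, and 10 genes with no second copy. Another 32 symbols, from 16 families, were measured only on probe sets shared by both copies and are given as families near the end. The remaining symbols were not analysed here.

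The large subunit of the cytosolic ribosome joins amino acids into protein, and its proteins hold the ribosomal RNA in shape, line the exit tunnel of the new chain and meet the factors that drive translation. Most of these genes exist in yeast as an A and a B copy from an ancient genome duplication, and the products of the copies are nearly or wholly identical. Their promoters are bound by Rap1, Fhl1 and Ifh1 under the control of the TOR and protein kinase A pathways, so that growing cells devote much of their transcription to them and starved or stressed cells little.

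The series followed yeast cells through a wine fermentation, with their total RNA labelled with biotin and hybridised to 1-colour Affymetrix arrays. There were 21 arrays, which stand for 7 times of harvest with 3 biological replicates each. The groups were cells harvested at 1 h and 12 h after inoculation, for which no ethanol content is given, and at 24 h (0.5% ethanol), 48 h (2%), 60 h (3.5%), 120 h (7%) and 340 h (10%). The groups differ in time and ethanol together, so the effects of age of the culture, ethanol and other changes of the medium cannot be told apart. The strain, its genotype and the medium are not given in the sources used here.

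Values are log2 probe set signals, and 1 unit is a 2-fold difference in signal. Each probe set has its own brightness, so levels are compared only within a probe set, and the array's common distribution hides any change in total mRNA. In bulk RNA, fewer cells that hold a transcript and less of it per cell cannot be told apart. The median over genes lay between 6.62 and 6.90 on every array. Replicate 3 at 24 h stood apart from its group, with the lowest mean correlation within a group (0.960), 18S ribosomal RNA control signals of 9.33, against 6.36 and 6.49 on the other 24 h arrays, and the highest RPL median of that time (11.87). The 18S controls were at 10.09 to 12.08 at 340 h, against 6.36 to 9.33 at 24 h. Their part in the changes below was not tested.

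As a group, the 42 RPL genes were highest at the start and lower at each harvest after 24 h. The median of the 42 levels on an array was 11.97 to 11.98 at 1 h, 11.52 to 11.77 at 12 h and 11.50 to 11.87 at 24 h. It was 11.11 to 11.49 at 48 h, 10.52 to 10.66 at 60 h, 10.02 to 10.20 at 120 h and 9.30 to 9.50 at 340 h. From 48 h on, this median was lower on every array than on all arrays of the time before. All 42 genes passed the moderated F test for any change over the 7 times (limma, Benjamini-Hochberg adjusted p under 0.05), as did 89.2% of all genes. At 340 h against 24 h, 41 of the 42 genes fell, while 36% of all genes did, and none rose, while 27.8% of all genes did. The median change of the 42 was -2.30, a 4.93-fold lower signal, beside a median of -0.13 over all genes. For 38 of the 42 the fall was at least 2-fold, against 20.6% of all genes. For 41 of the 42, all 3 arrays at 340 h lay below all 3 at 24 h, against 36.6% of all genes. Without replicate 3 at 24 h the count was again 41 and the median change -2.24.

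**Figure D1:**
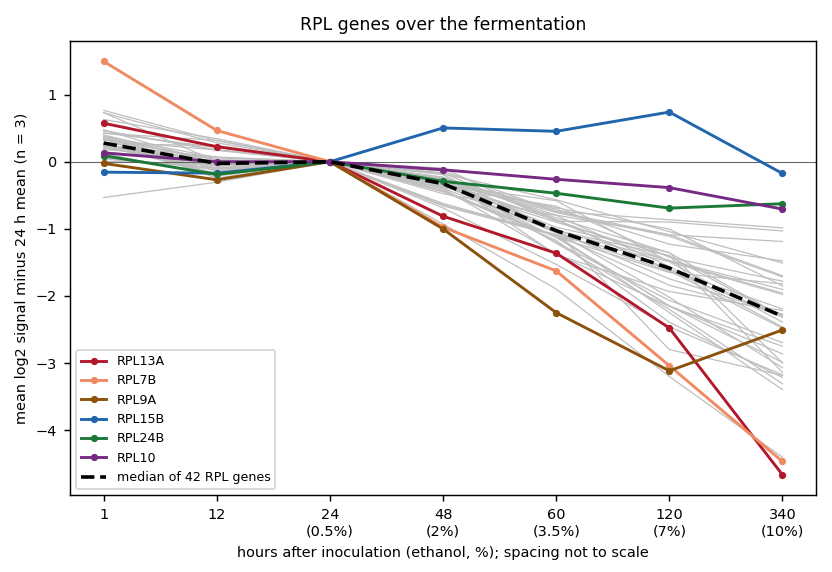
Mean log2 signal of each of the 42 RPL genes minus its own 24 h mean (vertical axis) at the 7 harvest times (horizontal axis, ethanol in brackets); 6 genes are coloured, the others are grey and the dashed line is the median of all 42. The median lies 2.30 below its 24 h level at 340 h, RPL13A and RPL7B lie below -4, RPL15B stays above its 24 h level from 48 h to 120 h, and RPL9A is lowest at 120 h.

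The size of the fall differed widely between genes. RPL13A (YDL082W), a protein of the outer part of the subunit, measured 6.38, 6.96 and 6.79 at 340 h, against 11.51, 11.33 and 11.30 at 24 h. It had the largest fall of the 42, at -4.67 ± 0.18 (log2 change ± SE, adjusted p = 1.65e-12, limma), a 25.4-fold lower signal. RPL7B (YPL198W), for a conserved RNA-binding protein of the subunit, measured 4.92, 5.09 and 5.24 at 340 h, against 9.38, 9.54 and 9.74 at 24 h. Its change was -4.47 ± 0.21, and in both genes the 340 h arrays lay more than 4 units below every 24 h array. A brighter probe set shared by RPL7A and RPL7B changed by -3.00. At the other end, RPL15B (YMR121C) measured 9.41, 9.87 and 9.37 at 340 h, against 9.53, 9.61 and 10.03 at 24 h. These arrays overlapped, and the change of -0.17 ± 0.22 did not pass the test (adjusted p = 0.504, limma), which makes RPL15B the 1 gene of the 42 that did not. RPL37A changed by -1.03, 2.04-fold lower and just past the 2-fold mark, and RPL37B by -0.98, 1.98-fold lower and just short of it.

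**Figure D2:**
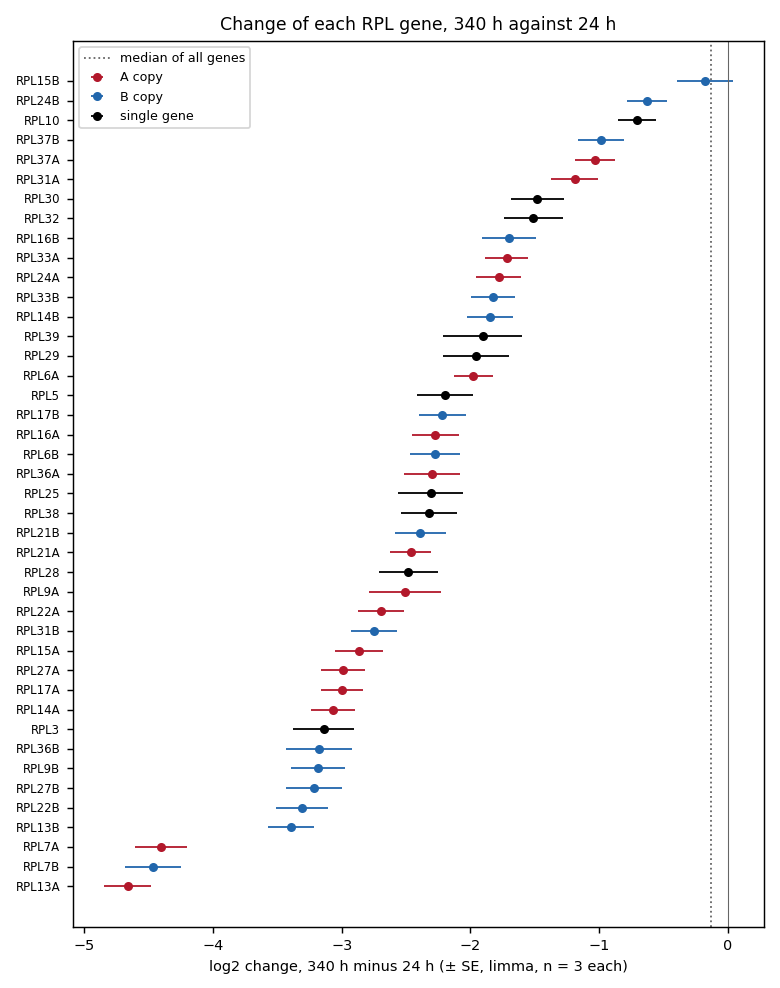
Log2 change at 340 h against 24 h (horizontal axis, with SE from limma, 3 arrays per time) for each of the 42 RPL genes, sorted from the smallest fall at the top; A copies are red, B copies blue, single genes black, and the dotted line is the median over all genes. The changes run from -0.17 in RPL15B to -4.67 in RPL13A, and 38 of 42 genes lie at or beyond a 2-fold fall.

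Genes for proteins near the catalytic centre and the 5S RNA were spread over the range. RPL3 (YOR063W), which reaches towards the peptidyl transferase centre, measured 7.59, 8.47 and 8.27 at 340 h, against 11.13, 11.21 and 11.41 at 24 h, a change of -3.14 ± 0.24. RPL5 (YPL131W), which carries the 5S RNA into the subunit, measured 9.64, 10.20 and 10.15 at 340 h, against 12.11, 12.13 and 12.33 at 24 h, and fell by 2.19 ± 0.22. RPL10 (YLR075W), which sits beside the tRNA path and is among the last proteins to join the subunit, measured 11.61, 11.83 and 11.63 at 340 h, against 12.36, 12.39 and 12.43 at 24 h. The groups did not overlap, and RPL10 fell by 0.71 ± 0.15 (adjusted p = 0.000404, limma), the smallest fall among the single genes. Between successive times after 12 h, RPL10 passed the test at none of the steps.

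All 8 genes for proteins around the exit tunnel fell at 340 h against 24 h, while 36% of all genes did. Their median change was -2.50, with a range from -1.19 in RPL31A to -3.31 in RPL22B. RPL22B, a protein not essential for growth, measured 6.10, 6.32 and 6.16 at 340 h, against 9.13, 9.48 and 9.90 at 24 h, and the groups did not overlap. RPL25 (YOL127W), the docking place of chaperones and the signal recognition particle, measured 8.24, 8.58 and 9.06 at 340 h, against 10.54, 10.90 and 11.36 at 24 h, a change of -2.31 ± 0.25. RPL39 (YJL189W), a very small protein in the tunnel wall, measured 8.45, 9.47 and 9.54 at 340 h, against 10.60, 10.95 and 11.62 at 24 h. Its change of -1.90 had the largest SE of the 42, 0.31, and the groups still did not overlap.

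The 3 genes for proteins that face the small subunit had a smaller median change, -1.48. They include both copies of RPL24, the grouping by role was made after seeing the data, and no test was made between groups. RPL24B (YGR148C), part of a bridge between the subunits, measured 12.35, 12.28 and 11.98 at 340 h, against 12.85, 12.84 and 12.80 at 24 h, and fell by 0.63 ± 0.16 (adjusted p = 0.00202, limma). Its other copy RPL24A (YGL031C) measured 10.24, 10.27 and 10.35 at 340 h, against 11.78, 12.21 and 12.20 at 24 h, a change of -1.78 ± 0.17. RPL30 (YGL030W), which also controls the splicing of its own transcript and is the neighbour of RPL24A on the chromosome, fell by 1.48 ± 0.20. RPL9A and RPL9B, whose protein lies at the base of the stalk that binds the translation factors, changed by -2.51 ± 0.28 in RPL9A and -3.18 ± 0.21 in RPL9B.

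The remaining 26 genes encode proteins of the core and outer surface, and 25 of them fell, while 36% of all genes did. Their median change was -2.31. RPL7A and RPL13B were next after RPL13A and RPL7B, with changes of -4.40 ± 0.20 in RPL7A and -3.40 ± 0.18 in RPL13B. Other probe sets of RPL7A changed by -5.12 and by -0.77, the last of them dim, with a level of 5.97 at 24 h. The set shared by RPL7A and RPL7B changed by -3.00, less than the brightest own set of either copy. RPL28 (YGL103W), the site of mutations that give resistance to cycloheximide, fell by 2.48 ± 0.23. The changes were -2.32 ± 0.22 in RPL38, -1.96 ± 0.26 in RPL29 and -1.51 ± 0.23 in RPL32. By copy, and beside 36% of all genes, 16 of 16 A copies fell with a median of -2.48 and 15 of 16 B copies with a median of -2.33. Of the single genes 10 of 10 fell, with a median of -2.08. The difference between these medians was not tested.

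The change at 340 h was larger in dimmer probe sets to a limited extent. Across the 42 genes the level at 24 h, which ran from 9.50 to 13.46, and the change had a Pearson r of 0.32 and a Spearman rho of 0.35. This is a description across genes of the same arrays, which share their preparation, and the 24 h level enters both axes. For 15 genes or families with several probe sets the brightest showed the smallest fall in 7 and the largest in 5.

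The sizes depend on the scale. Each array was also centred on the median of 5 genes often used as references, ACT1, ALG9, TAF10, TFC1 and UBC6, which moved the median of all genes by 0.70 at 340 h against 24 h. Of the 5, TAF10 (-1.60) and ALG9 (-0.60) themselves fell. The RPL median was then -1.60, 37 of 42 genes fell, while 15.5% of all genes did, and RPL15B rose (0.52, adjusted p = 0.0367, limma), as did 52.2% of all genes. RPL10 (-0.0062), RPL24B (0.073), RPL37A and RPL37B then passed in neither direction. The median of the 42 minus that of all genes was -2.18, a distance that no shift of a whole array can alter.

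At 12 h against 1 h, 11 of the 42 genes fell, while 33.9% of all genes did, and none rose, while 26% of all genes did. For 28 of the 42 the 12 h arrays lay below all 1 h arrays, against 37.6% of all genes. The median change was -0.31, beside -0.11 over all genes. Centred on the reference genes, 1 of the 42 fell, RPL7B, while 22.5% of all genes did, with a median of -0.07. Of the 5 reference genes, 1 itself fell and 2 rose at this step, with changes from -0.97 to 0.53. This scale was therefore not a steady one here. RPL7B measured 10.35, 9.73 and 9.97 at 12 h, against 11.02, 11.16 and 10.96 at 1 h, a change of -1.03 ± 0.21 (adjusted p = 0.000214, limma). RPL6B (YLR448W) measured 11.89, 11.47 and 11.61 at 12 h, against 12.29, 12.41 and 12.46 at 1 h, and fell by 0.73 ± 0.19. The arrays of the 2 times were apart in both genes. The count was 5 without replicate 3 at 1 h. It was also 5 without replicate 2 at 12 h. At 24 h against 12 h no RPL gene passed the limma test, with 1, RPL7B, lower at an unadjusted p under 0.05. Of all genes 1.27% fell and 0.796% rose at that step. No RPL gene had all 24 h arrays below all 12 h arrays, against 10.4% of all genes, and the RPL median change was 0.026.

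At 48 h against 24 h, 8 of the 42 genes fell, while 8.42% of all genes did, and none rose (12.8% of all genes; 1 at an unadjusted p under 0.05, RPL15B). The median change was -0.33, and in 22 of the 42 all 48 h arrays lay below all 24 h arrays, against 18.7% of all genes. Centred on the reference genes, 1 gene, RPL7B, fell and RPL15B rose, while 2.86% of all genes fell and 22.1% rose, and the RPL median was -0.04. The 8 that fell without this centring were RPL6A, RPL6B, RPL7A, RPL7B, RPL9A, RPL13A, RPL13B and RPL21A. RPL9A measured 8.63, 8.53 and 8.71 at 48 h, against 9.13, 9.64 and 10.09 at 24 h, a change of -1.001 ± 0.28 (adjusted p = 0.016, limma), with wide spread at 24 h. RPL9A no longer passed without replicate 3 at 24 h (adjusted p = 0.0743) or without replicate 2 at 48 h (adjusted p = 0.0539). RPL7B measured 8.50, 8.31 and 8.92 at 48 h, against 9.38, 9.54 and 9.74 at 24 h, a change of -0.98 ± 0.21. The count was 5 without replicate 3 at 24 h, 5 without replicate 1 at 48 h and 4 without replicate 2 at 48 h.

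At 60 h against 48 h, 16 of the 42 genes fell, while 4.6% of all genes did, and none rose, while 3.48% did. The median change was -0.62 beside 0.02 over all genes. For 34 of the 42, all arrays at 60 h lay below all arrays at 48 h, against 18.5% of all genes. RPL9A measured 7.75, 7.42 and 6.95 at 60 h, against 8.63, 8.53 and 8.71 at 48 h, a change of -1.25 ± 0.28 (adjusted p = 0.0111, limma), and did not pass without replicate 3 at 60 h (adjusted p = 0.0547). RPL17B (YJL177W), a protein of the tunnel wall, measured 10.84, 11.34 and 11.29 at 60 h, against 12.28, 12.34 and 12.27 at 48 h, a change of -1.14 ± 0.18. These arrays were clearly apart. The count was 10 without replicate 2 at 48 h, 8 without replicate 3 at 48 h, 10 without replicate 1 at 60 h and 8 without replicate 3 at 60 h.

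At 120 h against 60 h, 20 of the 42 genes fell, while 4.95% of all genes did, and none rose, while 4.6% did. The median change was -0.66, and in 26 of the 42 all 120 h arrays lay below all 60 h arrays, against 15.6% of all genes. Centred on the reference genes, 9 of the 42 fell, while 1.31% of all genes did, with a median of -0.35. RPL9B (YNL067W) measured 7.17, 6.99 and 7.17 at 120 h, against 9.25, 8.94 and 8.41 at 60 h, a change of -1.76 ± 0.21 (adjusted p = 6.18e-05, limma). RPL7B measured 6.83, 6.63 and 6.08 at 120 h, against 8.24, 7.85 and 7.69 at 60 h, a change of -1.41 ± 0.21. In both genes the times did not overlap.

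At 340 h against 120 h, 27 of the 42 genes fell, while 26.6% of all genes did, and none rose, while 15.9% did. The median change was -0.62 beside -0.17 over all genes, and in 29 of the 42 the 340 h arrays lay below all 120 h arrays, against 33.6% of all genes. Centred on the reference genes, 17 fell and RPL9A rose, while 14.8% of all genes fell and 18.2% rose. RPL13A measured 6.38, 6.96 and 6.79 at 340 h, against 8.96, 8.90 and 8.83 at 120 h, a change of -2.19 ± 0.18 (adjusted p = 8.89e-08, limma). RPL3 measured 7.59, 8.47 and 8.27 at 340 h, against 10.06, 9.51 and 9.99 at 120 h, a change of -1.74 ± 0.24. Both genes were lower on every 340 h array. RPL9A went the other way in value, with 7.26, 6.78 and 7.30 at 340 h, against 6.19, 6.15 and 7.18 at 120 h. The arrays overlapped through replicate 3 at 120 h and the change of 0.61 ± 0.28 did not pass (adjusted p = 0.0908, limma). Without that replicate the change was 0.95 and passed (adjusted p = 0.00949, limma). Replicate 3 at 120 h had 18S ribosomal RNA control signals of 9.61, against 7.16 and 6.80 on the other 120 h arrays. It also had the highest RPL median of that time (10.20).

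Genes had their largest step at different times. At an unadjusted p under 0.05 (limma), RPL15B at 48 h and RPL9A at 340 h against 120 h were higher, and no RPL gene was higher in the other 4 successive comparisons or at 340 h against 24 h. Among the 5 steps after 12 h, the largest fall came at 48 h in 2 genes, at 60 h in 11, at 120 h in 14 and at 340 h in 15. The 11 with the largest step at 60 h included RPL9A, RPL17B, RPL22A, both RPL31 copies and both RPL37 copies. The 15 with the largest step at 340 h included RPL3, RPL10, RPL13A, RPL15B and RPL17A. The steps span unequal times, and the median change per 12 h was -0.16 up to 48 h, -0.62 up to 60 h, -0.13 up to 120 h and -0.03 up to 340 h.

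The A and B copies of a gene were set against each other by the difference A minus B on each array, in which any scaling of the whole array cancels. The size of the difference at one time has no meaning, since the probe sets differ, and only its change over time was tested. Over the 7 times, 13 of the 16 RPL pairs passed the F test, while 75.8% of all 33 A and B pairs measured did. The 33 include these 16, and the other 17 are mostly pairs of small subunit or stalk protein genes. The shares are thus no background of genes in general. Of the other 17 pairs, 12 passed the F test. At 340 h against 24 h, 10 of the 16 RPL pairs passed, while 60.6% of all pairs and 10 of the other 17 did. The A copy fell more in RPL13, RPL14, RPL15, RPL16, RPL17 and RPL24, and the B copy fell more in RPL9, RPL22, RPL31 and RPL36. Neither copy was thus the one that fell more throughout.

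**Figure D3:**
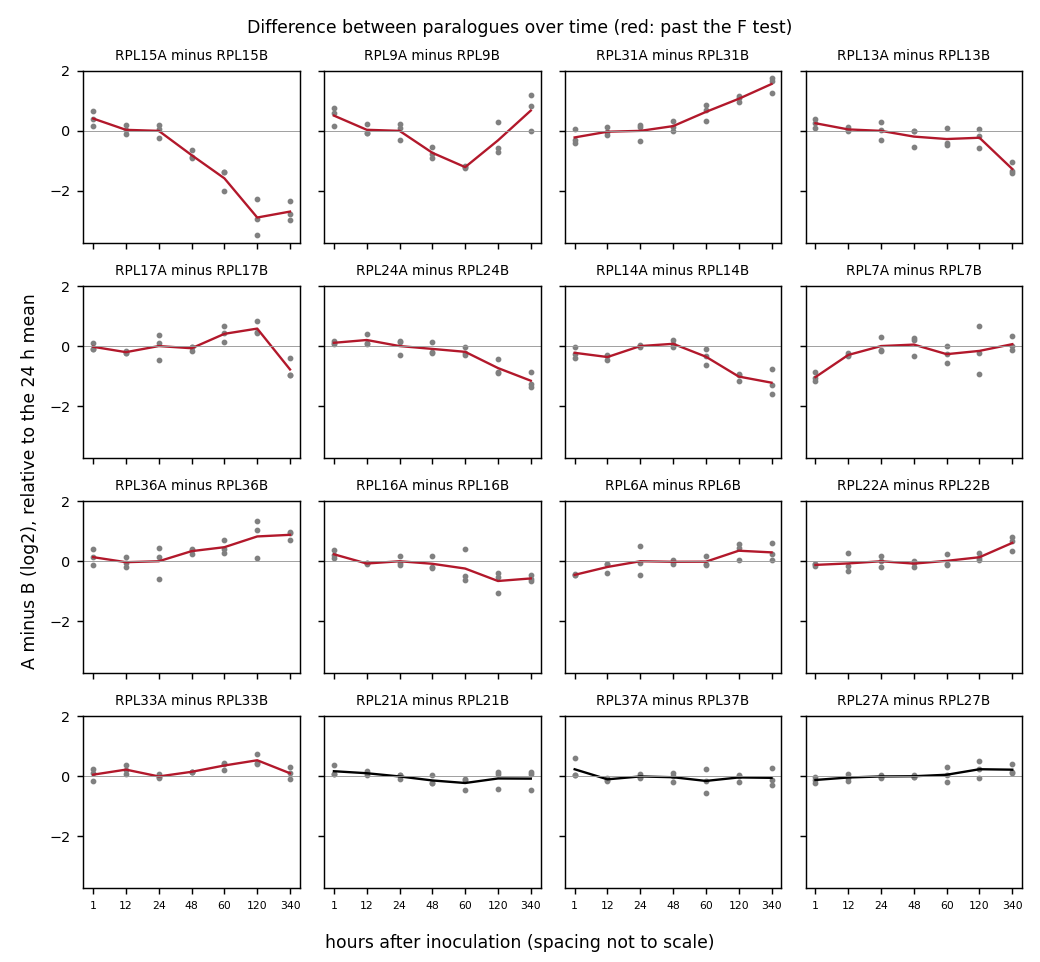
Log2 signal of the A copy minus that of the B copy (vertical axis), relative to the mean difference at 24 h, at the 7 harvest times (horizontal axis) for the 16 RPL pairs; points are arrays, lines are means of 3, and red lines mark pairs past the F test. The RPL15 line ends 2.69 below and the RPL31 line 1.56 above its 24 h level, and RPL27 (black) has the smallest range, 0.36.

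RPL15, a core protein that binds early to the large subunit's RNA, had the largest range of the difference, 3.30. RPL15A (YLR029C) measured 11.08, 11.03 and 11.14 at 24 h, 10.78, 10.60 and 10.96 at 48 h, 9.86, 10.12 and 9.88 at 60 h, 8.79, 8.79 and 9.23 at 120 h and 7.81, 8.45 and 8.40 at 340 h. RPL15B measured 9.53, 9.61 and 10.03 at 24 h, 10.33, 10.12 and 10.24 at 48 h, 10.49, 10.14 and 9.90 at 60 h, 10.90, 10.37 and 10.13 at 120 h and 9.41, 9.87 and 9.37 at 340 h. The A copy's values were lower at each harvest, while the B copy lay within or above its 24 h values until 120 h. The mean difference A minus B was 1.77 at 1 h, 1.39 at 12 h and 1.36 at 24 h. It was then 0.55 at 48 h and -0.22 at 60 h, and in the end -1.53 at 120 h and -1.33 at 340 h. Its change at 340 h against 24 h was -2.69 ± 0.25 (95% interval -3.20 to -2.18, adjusted p = 3.66e-09, limma). RPL15B itself fell at 340 h against 120 h by 0.92 ± 0.22. Its change of 0.50 at 48 h against 24 h did not pass (adjusted p = 0.109, limma), and passed without replicate 3 at 24 h (0.66, adjusted p = 0.0491, limma). A probe set shared by both copies changed by -3.46 at 340 h against 24 h, beside -2.86 for RPL15A and -0.17 for RPL15B on their own sets. The shared set thus fell more than either own set, and the cause was not tested.

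RPL9 had the next largest range, 1.88, and its difference went down and up again. A minus B was -0.60, -0.19 and -0.07 at 24 h, -1.05, -1.18 and -0.82 at 48 h, -1.50, -1.52 and -1.46 at 60 h, -0.98, -0.84 and 0.01 at 120 h and 0.54, -0.29 and 0.92 at 340 h. The arrays of 60 h were closest together, and those of 48 h and 60 h lay below all of 24 h. The change at 340 h against 24 h, 0.68 ± 0.26 (adjusted p = 0.0301, limma), was lost without replicate 1 at 24 h (adjusted p = 0.151), replicate 1 at 340 h (0.0988) or replicate 3 at 340 h (0.231). Both copies were on probe sets that the maker marks as having fewer unique probes than its design asks for.

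RPL31, at the exit of the tunnel, had a range of 1.78. RPL31A (YDL075W) measured 11.21, 11.61 and 11.06 at 340 h, against 12.40, 12.55 and 12.49 at 24 h. RPL31B (YLR406C) measured 8.93, 9.25 and 9.17 at 340 h, against 11.65, 11.74 and 12.20 at 24 h. Both copies fell, and the B copy by 1.56 ± 0.19 more (adjusted p = 1.79e-07, limma). A second probe set of RPL31A changed by -2.43 in place of -1.19. With the mean of all probe sets of each gene, the difference changed by 1.27.

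For RPL13, A minus B was -1.24, -0.87 and -1.17 at 340 h, against 0.47, 0.20 and -0.14 at 24 h. The change was -1.27 ± 0.21 (adjusted p = 1.13e-05, limma), and the groups did not overlap. For RPL17 the answer depended on the probe set. RPL17A measured 9.78, 9.61 and 9.59 at 340 h, against 12.75, 12.73 and 12.50 at 24 h, and RPL17B measured 10.07, 10.45 and 10.45 at 340 h, against 12.27, 12.50 and 12.85 at 24 h. The difference changed by -0.78 ± 0.20 (adjusted p = 0.00215, limma). With the mean of all probe sets it changed by 0.30 instead (adjusted p = 0.128, limma), and the probe sets of RPL17A changed by -3.00 and -2.07 and those of RPL17B by -2.22, -2.44 and -3.82.

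**Figure D4:**
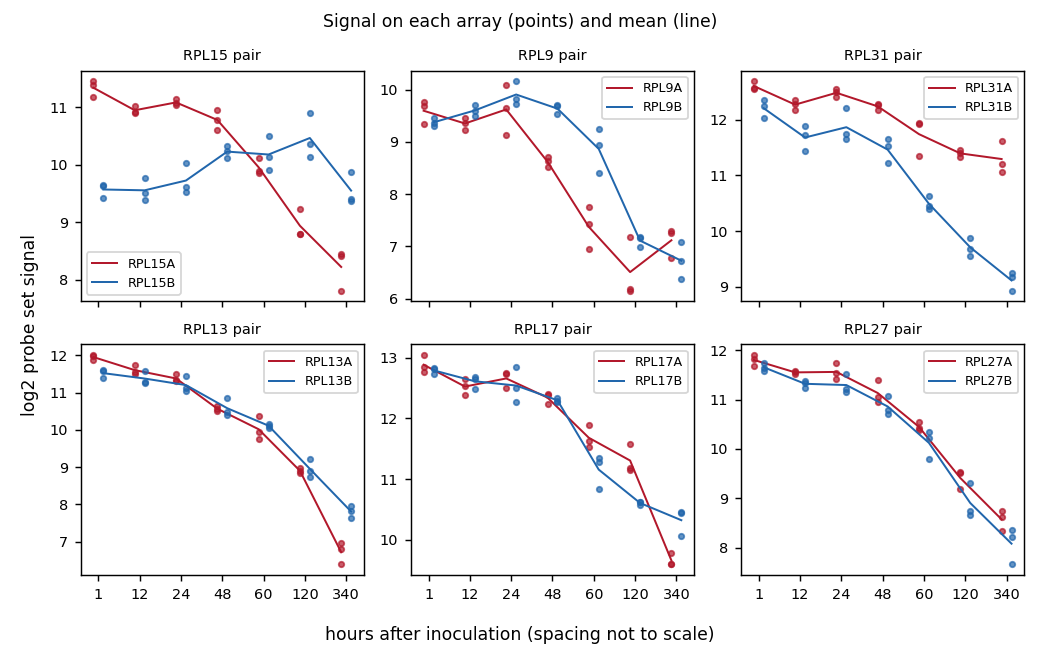
Log2 signal on each array (points) and mean of 3 (lines) for the A copies (red) and B copies (blue) of the 5 RPL pairs with the largest range of A minus B and of RPL27, the pair with the smallest range on these probe sets, at the 7 harvest times. RPL15A is lower at each time after 24 h while RPL15B is at 9.37 to 9.87 at 340 h, against 9.53 to 10.03 at 24 h, and the RPL27 difference changes by 0.23 between these times.

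The other pairs that passed at 340 h against 24 h had changes of A minus B of -1.22 ± 0.19 in RPL14, -1.15 ± 0.18 in RPL24, 0.88 ± 0.26 in RPL36, 0.61 ± 0.17 in RPL22 and -0.57 ± 0.22 in RPL16. Both copies of RPL14 and of RPL33, and RPL27A, were on probe sets for families of similar sequence. Both copies of RPL7, RPL17 and RPL36, and RPL31B, were on sets with fewer unique probes than the maker's design asks for. How much signal such sets take from the other copy was not tested. The RPL16 call was lost without replicate 1 at 24 h (adjusted p = 0.105), replicate 1 at 340 h (0.0808) or replicate 3 at 340 h (0.0653), and the RPL36 call without replicate 3 at 24 h (0.0516). RPL27, a protein of the outer part of the subunit, had the smallest range on its brightest probe sets, 0.36. RPL27A minus RPL27B was 0.68, 0.41 and 0.38 at 340 h, against 0.25, 0.33 and 0.22 at 24 h, a change of 0.23 (95% interval -0.11 to 0.56) that did not pass. This depended on the probe set, as with the mean of all probe sets the change was 0.57 (0.19 to 0.94) and passed (adjusted p = 0.00781, limma). The intervals of the other changes that did not pass ran from -0.45 to 0.30 in RPL21, -0.46 to 0.37 in RPL37, -0.22 to 0.43 in RPL33, -0.13 to 0.72 in RPL6 and -0.50 to 0.62 in RPL7. RPL6 passed without replicate 3 at 24 h (0.56, adjusted p = 0.0196, limma). RPL7 passed with the mean of all probe sets, with a change of 0.91 (0.46 to 1.36, adjusted p = 0.000982, limma), so that its result also depended on the probe set. That mean takes in the dim RPL7A set that changed by -0.77, while the other RPL7A sets changed by -4.40 and -5.12. The RPL7B sets changed by -4.47 and -4.21. RPL7 passed the F test, with a mean difference of 0.50 at 1 h, of 1.24 at 12 h and of 1.54 at 24 h.

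The 16 families measured only on shared probe sets also fell. In a fit over all 9275 probe sets, all 16 fell at 340 h against 24 h, while 27% of all probe sets did, with a median of -1.68 over the brightest probe set of each. RPL12, at the foot of the stalk, fell by 4.003 ± 0.15, and RPL8, an outer protein, fell by 3.43 ± 0.25. RPL43 fell least, by 1.17 ± 0.18. RPL11, which binds the 5S RNA with RPL5, changed by -1.43 ± 0.19, RPL2, close to the catalytic centre, by -1.55 ± 0.14, and RPL40, made as a fusion with ubiquitin, by -1.66 ± 0.31. Probe sets of a family varied, from -1.17 to -2.91 in RPL43. In the steps before, 4 families fell at 12 h against 1 h (24.9% of all probe sets), none at 24 h against 12 h (0.334%; 0 lower at an unadjusted p under 0.05, limma) and 2 at 48 h against 24 h (5.49%). No family passed at 60 h against 48 h (3.07%), with 9 of the 16 lower at an unadjusted p under 0.05 (limma) and a median of -0.40. This holds only for the brightest set of each family. Other probe sets of RPL8, RPL11, RPL34, RPL40 and RPL43 passed at this step, and 12 of all 38 shared RPL probe sets did. Of the 16 families, 5 fell at 120 h against 60 h (3.23%) and 11 at 340 h against 120 h (17.1%).

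Genes for other parts of the ribosome were set beside the RPL genes. At 340 h against 24 h all 33 small subunit RPS genes fell, while 36% of all genes did. Their median was -1.95, with the largest fall in RPS28B (-4.22). Centred on the reference genes, 28 of the 33 fell, while 15.5% of all genes did, with a median of -1.25. All 5 genes of the stalk proteins, which stand beside RPL12 and call in the translation factors, fell with a median of -2.15, the largest change being -2.75 in RPP2A. The mitochondrial large subunit, a separate ribosome, had 14 of 34 genes lower, beside 36% of all genes, with a median of -0.26. Another 3 were higher (MRPL28, MRPL33 and MRPL44), beside 27.8%. On the scale of the reference genes, 1 of the 34 was lower and 16 were higher, while 15.5% of all genes were lower and 52.2% higher. At 48 h against 24 h, where 8 RPL genes fell, 21 of the 34 mitochondrial genes rose, while 12.8% of all genes did, with a median of 0.63.

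Genes for building the large subunit had their lowest median at the first step. Of 62 assembly and export factors, 61 (all but REH1) fell at 12 h against 1 h, while 33.9% of all genes did, with a median of -2.06, at the step where 11 of 42 RPL genes fell. At 60 h against 48 h, where 16 RPL genes fell, 1 of the 62 fell, MRT4, while 4.6% of all genes did, with a median of -0.07. At 340 h against 24 h, 53 of the 62 fell, while 36% of all genes did, and 5 rose (JJJ1, NOC3, NOP16, NUG1 and REH1), with a median of -1.51, and NIP7, a factor of large subunit assembly, fell by 3.69. With the reference genes as the scale, 36 of the 62 fell, while 15.5% of all genes did, and 7 rose, while 52.2% of all genes did. All 5 dedicated chaperones, which bind newly made RPL proteins, fell at 12 h against 1 h with a median of -1.72. At 340 h against 24 h all 5 fell again, with changes of -2.71 in RRB1, the chaperone of RPL3, -1.95 in ACL4, that of RPL4, and -1.74 in BCP1, that of RPL23. SYO1, the chaperone of RPL5 and RPL11, changed by -1.47 and SQT1, that of RPL10, by -1.27.

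Of 16 regulators of the ribosomal protein genes, 11 rose at 340 h against 24 h, while 27.8% of all genes did. None fell, while 36% of all genes did, and none was lower at an unadjusted p under 0.05 (limma). The median change was 1.20. Centred on the reference genes, 14 of the 16 rose, while 52.2% of all genes did. YAK1, a kinase that acts against growth, rose by 2.90 ± 0.20 and DOT6, a repressor of ribosome assembly genes, by 2.54 ± 0.27. TOR2, a kinase of the TOR pathway, rose by 2.28 ± 0.18. The 3 factors named above that bind the promoters of ribosomal protein genes also rose, while the RPL genes fell. Their changes were 1.80 ± 0.22 in IFH1, 1.20 ± 0.23 in RAP1 and 1.08 ± 0.26 in FHL1. The list mixes activators and repressors, and its counts have no common direction in activity. The lists' members were measured on the same arrays as the RPL genes and no test was made between lists.

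**Figure D5:**
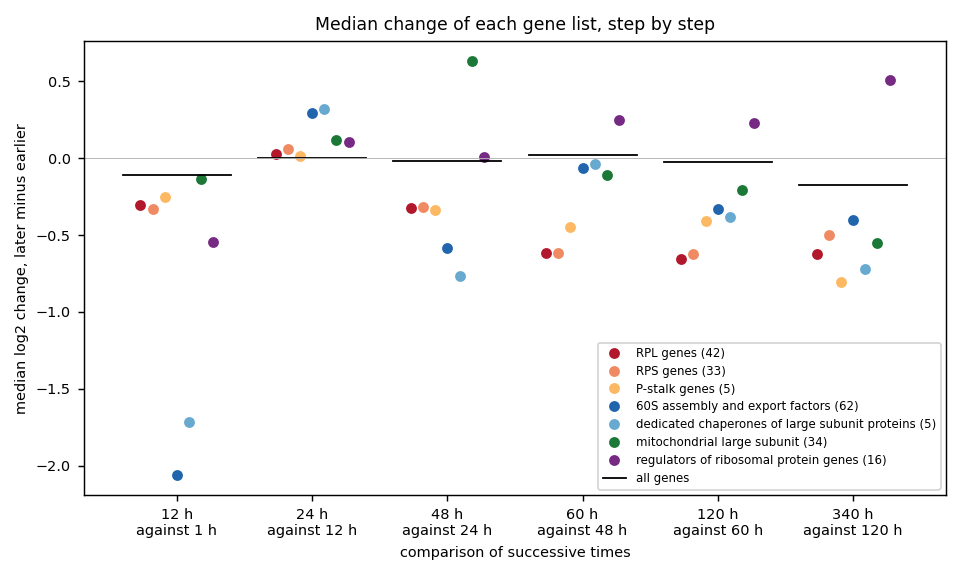
Median log2 change of the RPL genes and of 6 other gene lists (vertical axis, number of genes in brackets) in each of the 6 comparisons of successive times (horizontal axis), with a line for the median of all genes. The RPL and RPS genes lie below the line of all genes at every step but 24 h against 12 h, while the assembly factors and chaperones lie lowest at 12 h against 1 h, at -2.06 and -1.72.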

How the data were processed

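Total RNA was measured on 21 arrays, 3 biological replicates at each of 7 times. The authors' deposited values are log2 probe set signals made with RMA in the affy package, per the submitters' processing notes; versions, and which arrays were normalized together, are not given in the sources used here. The number of arrays limits the precision, and the median SE of an RPL change at 340 h against 24 h was 0.198.

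Of 9335 probe sets, 60 controls, 2443 with no gene and 328 with several genes were left out. Those with 1 gene numbered 6504 and, taking the brightest for each gene, gave 5656 genes. Of the 42 RPL genes, 28 were on plain probe sets, 9 on sets with fewer unique probes than the maker's design asks for and 5 on sets for families of similar sequence. Names came from the platform annotation and the RefSeq table of assembly R64. No column belonged to a sample outside the series.

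One mean per time was estimated by lmFit and eBayes of limma 3.58.1, run in R 4.3.3, on all genes, two-sided, Benjamini-Hochberg over all genes, adjusted p under 0.05. The 15 arrays of 24 to 340 h entered the comparisons among those times. All 21 arrays entered those with 1 h or 12 h, the F test and the pairs, where A minus B was fitted for all 33 A and B pairs. The fits were tested on simulated data. Values per array are given for the 2 largest falls in each comparison, the 5 pairs with the largest range and the one with the smallest, genes near a threshold, and genes that stand for a role. The RPL genes, the gene lists and the comparisons were chosen with earlier results of these data known; the grouping by role, the fit over shared probe sets and further genes for a role were chosen after seeing the data. Alternatives were other centrings, quantile normalization, other choices of probe set, a level filter, a trended prior, a replicate block and leaving out each array.

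Replicate numbers were checked for pairing by correlating deviations from the group means. Every same-numbered pair was over 0.1 at 120 h against 60 h (lowest r 0.16) and 340 h against 120 h (lowest r 0.15), and not in the other comparisons.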

Additional observations from a re-analysis of the deposited data

How the results depend on the processing

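The counts of RPL genes depend on the scale in several comparisons, but little at 60 h against 48 h. With arrays centred on the 5 reference genes, 1 gene fell at 12 h against 1 h (median -0.0675). At 48 h against 24 h 1 fell and 1 rose (median -0.0446). On that scale 15 fell at 60 h against 48 h (median -0.678), beside 16 without it. At 120 h against 60 h 9 fell (median -0.35), and at 340 h against 120 h 17 fell and 1 rose. At 340 h against 24 h 37 fell and 1 rose (median -1.60). The risers were RPL15B, RPL9A and RPL15B again. Centring on array medians gave 6 falls at 12 h against 1 h. On plain probe sets only, which measured 29 of the genes, 7 fell at 12 h against 1 h, 5 at 60 h against 48 h, 13 at 120 h against 60 h and 17 at 340 h against 120 h; of 8 pairs, 6 passed over the 7 times and 5 at 340 h against 24 h, where fewer genes were tested. With the mean of all probe sets the RPL17 pair turned to 0.30, and the RPL7 (0.91) and RPL27 (0.57) pairs passed. The causes were not tested. Of 389 results compared under alternatives other than leaving out an array, 366 counted as kept. A gene or pair was kept if its direction and side of the threshold stayed. A count was kept within 1.5 times, or if it stayed at 0. A median change was kept if it moved by less than 0.214, the median residual SD of the members.

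Leaving out 1 array at a time gave 5 to 12 genes that fell at 12 h against 1 h, 4 to 9 at 48 h against 24 h (0 to 1 rose), 8 to 21 at 60 h against 48 h, 15 to 23 at 120 h against 60 h, 21 to 28 at 340 h against 120 h (0 to 1 rose) and 41 in every case at 340 h against 24 h. For pairs it gave 10 to 13 over the 7 times and 8 to 10 at 340 h against 24 h. Of the pairs that did not pass, 3 turned sign, with ranges of -0.176 to 0.112 in RPL21, -0.210 to 0.0782 in RPL37 and -0.0666 to 0.210 in RPL7.

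With the replicate number as a block, 12, 0, 9, 22, 24 and 29 genes fell in the 6 successive comparisons and 41 at 340 h against 24 h, and 13 and 10 pairs passed. No count moved by more than 1.5 times. Signal over background is not given in the sources used here, so how far dim levels such as 4.92 for RPL7B lie above it is unknown.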
